A study of Homo sapiens with 6 samples.

Results

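Replication origins, forks and the chromatin behind the fork are handled by a set of proteins whose transcripts were followed here in OE33, an established human cell line of oesophageal adenocarcinoma. The 42 genes were taken by name and matched to Ensembl identifiers through GENCODE 29, and all 42 were found among the 58051 gene rows of the count table. They cover origin licensing, origin firing, the polymerases, the sliding clamp and its loaders, fork protection and chromatin assembly, and they hold no MCM gene. Cultures given 15 µM APX2009 for 24 h were compared with untreated cultures, with 3 libraries of poly(A) RNA in each group, which the series describes as independent biological replicates. APX2009 is a small molecule that inhibits the redox activity of the DNA repair protein APE1. OE33 was the only line used, no altered allele is named, and no vehicle is named for the control cultures. The comparison therefore describes 1 line at 1 dose and 1 time.

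DNA replication starts from origins that are licensed in G1, when ORC, CDC6 and CDT1 load the MCM helicase, and geminin later blocks reloading. The kinase made of CDC7 and DBF4, together with CDC45 and the GINS complex, then turns the loaded helicase into an active one. Polymerase alpha with primase lays down primers, polymerases epsilon and delta extend the strands on the PCNA clamp, RFC loads that clamp, and RPA coats single strands. Chromatin assembly factor 1 (CAF-1) deposits histones behind the fork, where UHRF1 and DNMT1 copy DNA methylation. Many of these genes are transcribed under E2F factors as cells approach S phase, and their mRNA is widely used as a sign of cycling cells.

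Promoters were read for the 36 of 42 members that the RefSeq promoter table (GRCh38.p14) holds; GINS4, DSCC1, RPA2, RPA3, POLD3 and ATAD2 have no entry in it. Each window runs from 250 bases before to 50 bases after a gene's start. The E2F words TTTCCCGC, TTTCGCGC, TTTGCCGC and TTTGGCGC, searched on both strands, were present in 18 of the 36 genes (50%). They were present in 667 of the 10228 tested genes in the same table (6.52%) and in 1090 of all its 27305 genes (3.99%). The windows below belong to members that lead their role groups by p among those holding such a word. They are the 4 of smallest p among these leaders, so every printed window holds the word by choice. The list of 42 members itself was made without promoter sequence. Capitals mark the E2F word, which in all 4 is written on the strand opposite to the gene. It begins 14 bases before the gene's start in UHRF1, 18 before it in POLE, 55 before it in RFC3 and 5 before it in CLSPN, whose RefSeq start lies outside the gene's GENCODE 29 span. UHRF1 has 3 listed starts, of which 1 is shown, the first listed with the word.
UHRF1, chr19:4909251-4909550, plus strand: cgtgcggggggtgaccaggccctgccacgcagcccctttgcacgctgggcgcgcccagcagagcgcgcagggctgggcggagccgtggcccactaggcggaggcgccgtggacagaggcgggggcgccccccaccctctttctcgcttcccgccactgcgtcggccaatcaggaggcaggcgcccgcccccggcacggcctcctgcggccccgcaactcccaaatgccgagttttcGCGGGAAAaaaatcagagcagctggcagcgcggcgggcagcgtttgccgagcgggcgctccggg
POLE, chr12:132687293-132687592, minus strand: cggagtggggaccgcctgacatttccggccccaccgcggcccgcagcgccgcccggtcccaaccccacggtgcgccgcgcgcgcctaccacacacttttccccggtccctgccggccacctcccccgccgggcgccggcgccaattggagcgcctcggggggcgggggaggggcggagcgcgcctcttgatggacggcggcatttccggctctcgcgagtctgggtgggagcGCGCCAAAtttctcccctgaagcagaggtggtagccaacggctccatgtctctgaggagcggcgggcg
RFC3, chr13:33817899-33818198, plus strand: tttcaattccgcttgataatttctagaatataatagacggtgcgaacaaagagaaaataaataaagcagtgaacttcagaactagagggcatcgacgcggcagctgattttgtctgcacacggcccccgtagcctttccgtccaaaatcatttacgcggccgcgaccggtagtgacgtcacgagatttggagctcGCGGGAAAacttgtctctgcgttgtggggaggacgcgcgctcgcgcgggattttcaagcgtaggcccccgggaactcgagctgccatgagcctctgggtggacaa
CLSPN, chr1:35769929-35770228, minus strand: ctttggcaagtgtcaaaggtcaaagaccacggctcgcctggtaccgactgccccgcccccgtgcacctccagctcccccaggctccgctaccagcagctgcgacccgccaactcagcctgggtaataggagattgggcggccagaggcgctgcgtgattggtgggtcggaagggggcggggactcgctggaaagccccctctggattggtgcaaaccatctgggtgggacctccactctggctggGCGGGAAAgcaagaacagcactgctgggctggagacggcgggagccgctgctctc

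The libraries held 21158750 to 26111656 gene counts in the APX2009 group and 22443569 to 25093753 in the untreated group, and the lowest count of any of the 42 genes in any library was 20. Levels are given as CPM, counts relative to library size after scaling by edgeR's TMM factors. The 7 columnar epithelial markers were present in every library, with a summed level of 14690 to 18330 CPM in APX2009 libraries and 26530 to 27190 CPM in untreated libraries. Most of that sum was KRT19, at 11303 CPM on average in APX2009 libraries and 18555 CPM in untreated libraries, and CDH1, KRT8, KRT18, KRT19 and ERBB2 fell while EPCAM (log2 change 0.00, SE 0.06, edgeR adjusted p = 0.9799) and CLDN7 (log2 change 0.16, SE 0.07, edgeR adjusted p = 0.0994) did not pass. APX2009 library 1 stood apart from the other 5. Its ERCC spike-ins came to 0.315% of its gene and spike-in counts together, against 0.734% to 0.752% in the other APX2009 libraries and 0.4801% to 0.564% in untreated libraries. Mitochondrial genes took 4.12%, 2.25% and 2.25% of gene counts in APX2009 libraries 1, 2 and 3 and 2.62%, 0.943% and 1.33% in untreated libraries 1, 2 and 3, and 25015 genes were detected in APX2009 library 1, against 21845 to 22446 in the other APX2009 libraries and 22207 to 22322 in untreated libraries. APX2009 library 1 also had 42 counts of DCN and 26 of COL1A2, fibroblast genes that were at 0 in the other 5. The summed level of the 5 fibroblast markers was 9.11 to 17.1 CPM in APX2009 libraries, highest in library 1, and 8.35 to 12.6 CPM in untreated libraries. Most of each sum was COL1A1, at 11.3 CPM on average in APX2009 libraries and 10.2 CPM in untreated libraries. In the untreated libraries and APX2009 library 2 the other fibroblast markers were at 0, and THY1 was at 0 throughout. The 4 endothelial markers summed to 0.0889 to 2.02 CPM in APX2009 libraries, again highest in library 1, and 0.0445 to 0.402 CPM in untreated libraries. The 5 leukocyte markers summed to 7.66 to 8.76 CPM in APX2009 libraries and 6.08 to 7.79 CPM in untreated libraries, with CD3E at 0 throughout. Within that list CD68 was higher (log2 change 1.19, SE 0.25, edgeR adjusted p = 0.00513). CD14 (log2 change -0.18, SE 0.16, edgeR adjusted p = 0.398) and CD79A (log2 change 0.24, SE 0.31, edgeR adjusted p = 0.583) did not pass. PTPRC had 6 counts in APX2009 library 1 and 0 in every other library. The part of these markers, of mitochondrial share and of genes detected in the results was not tested. The main counts below are therefore also given without APX2009 library 1.

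Transcripts of the replication set were lower after APX2009, by a moderate amount and across all roles. Their summed level was 1067 ± 62.8 CPM in APX2009 cultures and 1429 ± 31.97 CPM in untreated cultures (SD, n = 3 each), a difference of -25.4%. All 42 genes passed the filter on low counts, and 27 of them fell (64.3%) and 0 rose at a Benjamini-Hochberg adjusted p under 0.05 in edgeR's quasi-likelihood test. Across all 14773 genes tested, 34.7% passed this threshold, 17.4% lower and 17.2% higher. No member was higher at an unadjusted p under 0.05 (0 of 42), and DESeq2 and limma voom each called 0 members higher. The median log2 change of the 42 genes was -0.42, or 1.34-fold lower, beside 0.02 over all genes tested. In 32 of them (76.2%) all APX2009 values lay below all untreated values, a separation seen in 25.0% of all genes tested. The members were chosen with earlier results of these data known, so these shares beside those of all genes are only descriptive. Without APX2009 library 1, 30 members were lower, and so were 19.1% of all genes tested, against 17.4% with it. In bulk RNA, fewer cells in S phase and less of these transcripts per cell cannot be told apart.

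By estimate 10 of the 42 genes were at least 1.5-fold lower, and UHRF1 alone was at least 2-fold lower. No share over all genes was computed for these counts by estimate. Tested against a 1.5-fold change, 2 members passed, UHRF1 (edgeR adjusted p = 0.00528) and ATAD2 (edgeR adjusted p = 0.00976). In that test 1.73% of all genes tested were lower. As the median over the 42 genes of the log2 difference from the untreated mean, APX2009 libraries 1, 2 and 3 stood at -0.46, -0.34 and -0.52, and untreated libraries 1, 2 and 3 at 0.05, -0.01 and -0.01. APX2009 library 2 was the closest of the 3 to the untreated level, and 37 of the 42 genes were below the untreated mean in it. With TMM, RLE, total-count and upper-quartile scaling alike, 27 members were lower, while 17.0% to 18.0% of all genes tested were. With the ERCC total as the library size, edgeR called 0 members and 1 was lower at an unadjusted p under 0.05, with a median log2 change of -0.37. That fit called hardly any gene lower, 0.0474% of all genes tested. With ERCC totals and without APX2009 library 1, an alternative chosen after seeing the data, 41 were lower with a median of -0.92. In that fit 61.6% of all genes tested were lower, and their median was itself -0.48. Relative to the median of all genes, the members' median was -0.45 and -0.44 under these 2 ERCC scalings. A change of library size moves all genes by nearly the same amount. This difference could therefore hardly change with the scaling, and it is no separate support.

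**Figure D1:**
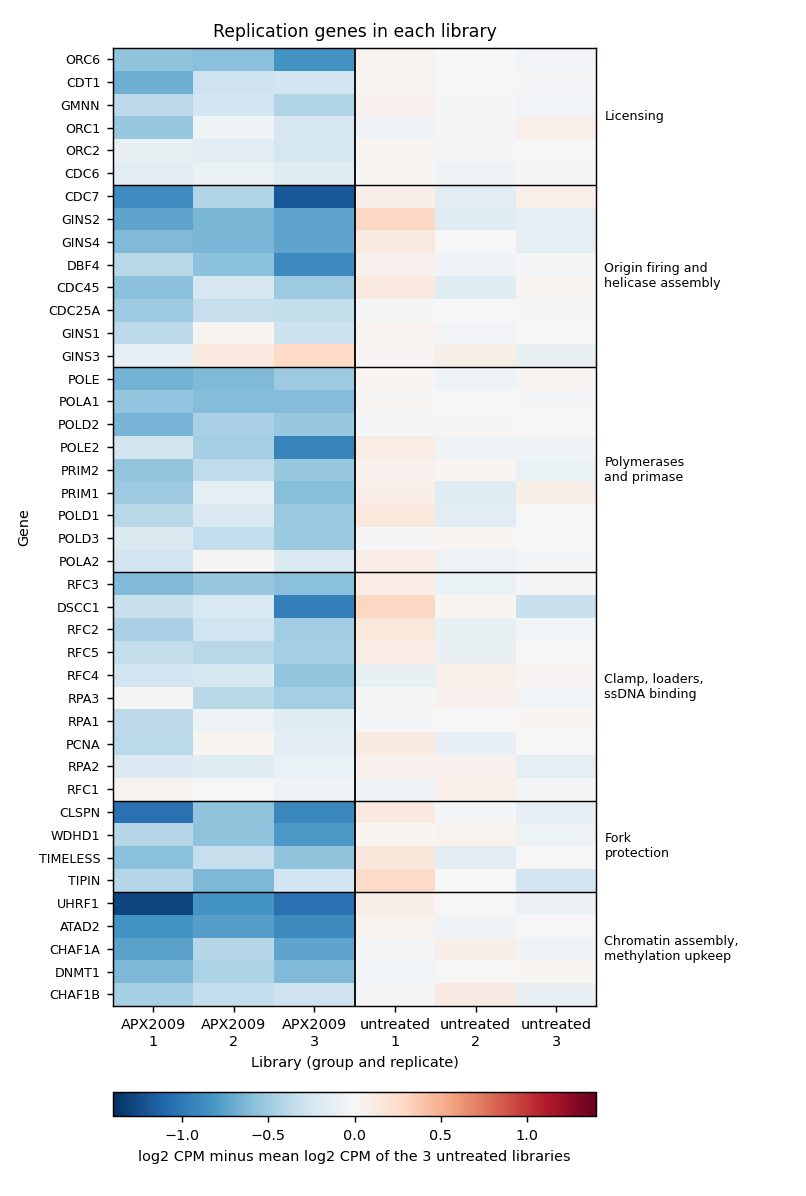
Log2 CPM of each of the 42 genes (rows, by role) in the 6 libraries (columns, APX2009 left of untreated), as the difference from the mean of the 3 untreated libraries; blue is lower and red is higher. Most rows are blue in all 3 APX2009 libraries, whose medians over the 42 genes are -0.46, -0.34 and -0.52, while GINS3 and RFC1 stay pale, some libraries faintly red.

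Among licensing genes 3 of 6 fell, with a median log2 change of -0.31, and the groups did not overlap in any of the 6. ORC6, the smallest subunit of the origin recognition complex (ENSG00000091651, chromosome 16, 46689643 to 46698394, GRCh38), had 18.1, 17.8 and 14.9 CPM in APX2009 libraries 1, 2 and 3, against 27.5, 26.6 and 25.9 CPM in untreated libraries 1, 2 and 3. It showed the largest fall of this group (log2 change -0.65, SE 0.09, edgeR adjusted p = 0.000412), with a wide gap between the groups. ORC1, the subunit whose protein comes and goes with the cell cycle, had 3.67, 5.11 and 4.503 CPM in APX2009 libraries, against 5.14, 5.22 and 5.61 CPM in untreated libraries. ORC2, a core subunit, had 38.1, 36.98 and 34.8 CPM in APX2009 libraries, against 41.5, 40.2 and 40.9 CPM in untreated libraries. Neither ORC1 (log2 change -0.27, SE 0.15, edgeR adjusted p = 0.205) nor ORC2 (log2 change -0.16, SE 0.07, edgeR adjusted p = 0.0885) passed the test, and the nearest ORC1 values of the groups almost met. CDC6, the ATPase that joins ORC to load the helicase, had 60.5, 63.3 and 59.9 CPM in APX2009 libraries, against 68.8, 65.2 and 67.9 CPM in untreated libraries. Its groups were narrowly apart and the difference did not pass (log2 change -0.14, SE 0.06, edgeR adjusted p = 0.103).

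CDT1 and its inhibitor geminin, encoded by GMNN, both fell. CDT1, which brings the helicase to ORC, had 27.3, 36.04 and 36.5 CPM in APX2009 libraries, against 45.02, 43.9 and 43.1 CPM in untreated libraries (log2 change -0.41, SE 0.10, edgeR adjusted p = 0.0125). APX2009 library 1 was the lowest of the 3, and without it the log2 change of CDT1 was -0.28 and still passed. GMNN had 12.6, 13.6 and 12.1 CPM in APX2009 libraries, against 16.9, 16.1 and 15.8 CPM in untreated libraries (log2 change -0.35, SE 0.09, edgeR adjusted p = 0.0135). Its groups were apart, but the call was lost without untreated library 1 (edgeR adjusted p = 0.0586) or untreated library 2 (edgeR adjusted p = 0.0536).

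Among genes of origin firing and helicase assembly 6 of 8 fell, with a median log2 change of -0.52. CDC7, the kinase that activates licensed origins, had 3.89, 5.29 and 3.11 CPM in APX2009 libraries, against 7.51, 6.39 and 7.43 CPM in untreated libraries (log2 change -0.79, SE 0.19, edgeR adjusted p = 0.00863). DBF4, its activating subunit, had 29.8, 26.2 and 21.1 CPM in APX2009 libraries, against 40.8, 37.8 and 38.7 CPM in untreated libraries (log2 change -0.60, SE 0.11, edgeR adjusted p = 0.002297). Every APX2009 value of both partners was under every untreated one. CDC45, the helicase cofactor, also fell (log2 change -0.44, SE 0.13, edgeR adjusted p = 0.0231), a call lost without APX2009 library 3 (edgeR adjusted p = 0.0624), untreated library 1 (0.0884) or untreated library 3 (0.0804). CDC25A, the phosphatase that activates CDK2, fell as well (log2 change -0.39, SE 0.09, edgeR adjusted p = 0.00939).

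The 4 GINS subunits, which work as a single complex, had unlike estimates. GINS2 had 4.76, 5.11 and 4.74 CPM in APX2009 libraries, against 9.701, 7.07 and 7.296 CPM in untreated libraries (log2 change -0.72, SE 0.15, edgeR adjusted p = 0.00456). GINS4 had 4.01, 3.96 and 3.69 CPM in APX2009 libraries, against 6.71, 6.19 and 5.61 CPM in untreated libraries (log2 change -0.66, SE 0.14, edgeR adjusted p = 0.00396). The groups were separated in each of these. GINS1 did not pass (log2 change -0.20, SE 0.12, edgeR adjusted p = 0.219, 95% interval -0.46 to 0.06). GINS3 did not pass either (log2 change 0.10, SE 0.11, edgeR adjusted p = 0.5, 95% interval -0.14 to 0.35). With ERCC totals and without APX2009 library 1 its sign turned to -0.29, where the median of all genes tested was -0.48. For both GINS1 and GINS3 the groups overlapped, and the interval of GINS3 does not reach the estimates of GINS2 and GINS4. The difference between subunits was not tested. Antisense genes overlap 10.9% of the GINS3 exon bases and 21.2% of those of GINS4, and the strand setting of the counting is unknown here, so reads of these pairs cannot be told apart.

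**Figure D2:**
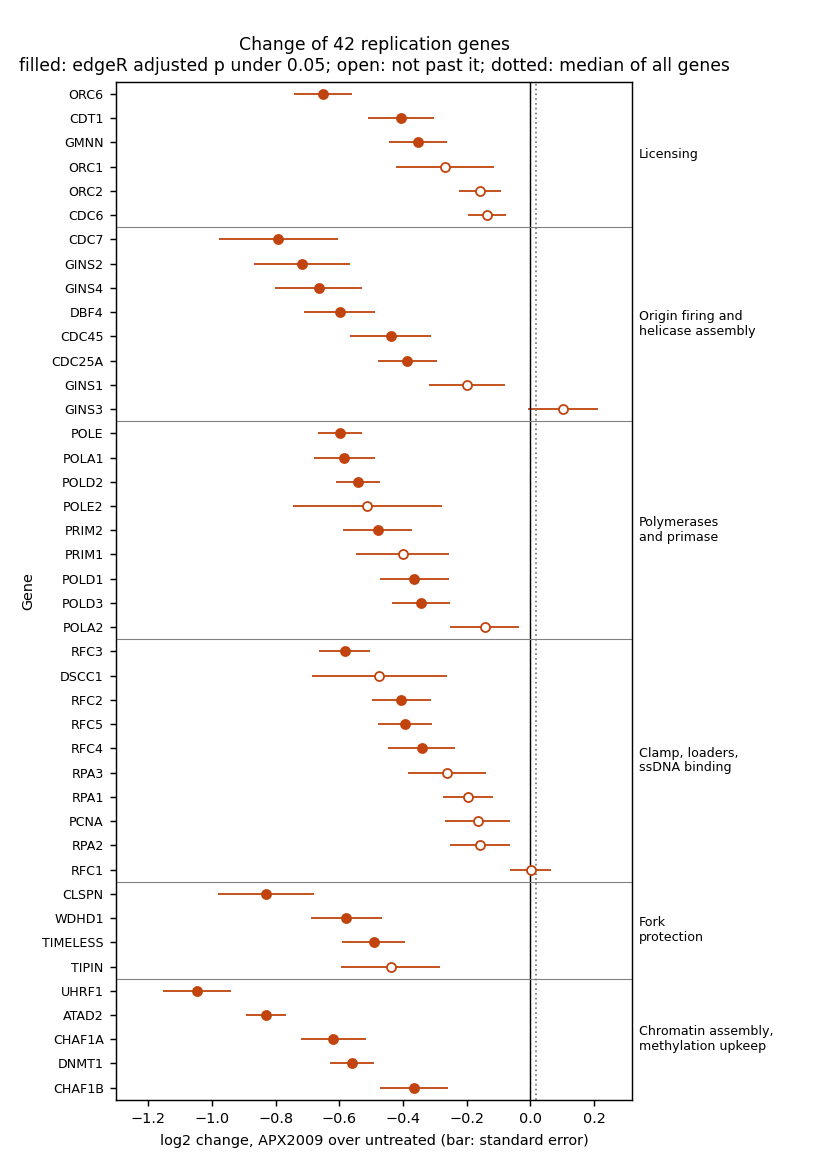
Log2 change of each of the 42 genes (APX2009 over untreated, TMM scaling) with its standard error, grouped by role. Filled points passed an edgeR adjusted p under 0.05 and all lie below 0, from -1.05 for UHRF1 upward; among the open points GINS3 at 0.10 and RFC1 at 0.00 do not lie below 0.

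Among polymerase and primase genes 6 of 9 fell, with a median log2 change of -0.48. POLE, the catalytic subunit of the leading-strand polymerase (ENSG00000177084, chromosome 12, 132623753 to 132687365), had 29.1, 30 and 32.3 CPM in APX2009 libraries, against 46.9, 44.1 and 47.2 CPM in untreated libraries (log2 change -0.60, SE 0.07, edgeR adjusted p = 0.000144). The gap between the groups was wide compared with the spread inside them. POLE2, its second subunit, had 1.54, 1.33 and 0.958 CPM in APX2009 libraries, against 1.97, 1.77 and 1.78 CPM in untreated libraries. Its estimate was nearly as large, but its error was over 3 times wider and it did not pass (log2 change -0.51, SE 0.23, edgeR adjusted p = 0.116). POLA1, the catalytic subunit of the priming polymerase, had 9.25, 8.8 and 8.81 CPM in APX2009 libraries, against 13.6, 13.5 and 13.3 CPM in untreated libraries (log2 change -0.58, SE 0.10, edgeR adjusted p = 0.00116). Its partner POLA2 had overlapping groups and did not pass (log2 change -0.14, SE 0.11, edgeR adjusted p = 0.331, 95% interval -0.38 to 0.10). PRIM2, the large primase subunit, had 8.76, 10.1 and 8.91 CPM in APX2009 libraries, against 13.5, 13.2 and 12.1 CPM in untreated libraries (log2 change -0.48, SE 0.11, edgeR adjusted p = 0.00663). The small subunit PRIM1 just missed the threshold (log2 change -0.40, SE 0.15, edgeR adjusted p = 0.0567), which it passed in DESeq2 and limma voom (adjusted p = 0.043 and 0.0465).

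Polymerase delta extends the lagging strand, and all 3 of its subunits among the members fell; the small subunit POLD4, of the related genes, did not pass (log2 change -0.03, SE 0.09, edgeR adjusted p = 0.794), with overlapping groups. POLD2, an accessory subunit, had 136, 156 and 147 CPM in APX2009 libraries, against 209, 216 and 214 CPM in untreated libraries (log2 change -0.54, SE 0.07, edgeR adjusted p = 0.000233). POLD1, the catalytic subunit, had 18.2, 20.8 and 16.6 CPM in APX2009 libraries, against 26.4, 21.3 and 23.98 CPM in untreated libraries (log2 change -0.36, SE 0.11, edgeR adjusted p = 0.0249). POLD3, which binds PCNA, had 20, 18.1 and 16.05 CPM in APX2009 libraries, against 22.5, 23.3 and 23.05 CPM in untreated libraries (log2 change -0.34, SE 0.09, edgeR adjusted p = 0.01596). POLD2 was clearly separated between the groups, whereas the nearest POLD1 values almost met. Another gene on the same strand shares 8.64% of the POLD1 exon bases. The POLD1 call was lost without APX2009 library 3 (edgeR adjusted p = 0.0758), untreated library 1 (0.102) or untreated library 3 (0.0779). The POLD3 call was lost without APX2009 library 2 (edgeR adjusted p = 0.0523), untreated library 2 (0.0736) or untreated library 3 (0.0683).

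Among genes of the clamp, the clamp loaders and single-strand binding 4 of 10 fell, with a median log2 change of -0.30. The 4 were the small RFC subunits, which are shared by all clamp loaders. RFC3 (ENSG00000133119, chromosome 13, 33818049 to 33966558) had 18.5, 19.6 and 18.9 CPM in APX2009 libraries, against 30.7, 26.7 and 28.2 CPM in untreated libraries (log2 change -0.58, SE 0.08, edgeR adjusted p = 0.000402). RFC2 had 19.5, 22.04 and 19.2 CPM in APX2009 libraries, against 29.6, 24.9 and 25.98 CPM in untreated libraries (log2 change -0.41, SE 0.09, edgeR adjusted p = 0.00727). In both every APX2009 value was under every untreated one, and the same held for the remaining pair. RFC5 had 17.9, 17.3 and 16.4 CPM in APX2009 libraries, against 24.2, 21.05 and 22.6 CPM in untreated libraries (log2 change -0.39, SE 0.08, edgeR adjusted p = 0.00524). RFC4 had 15.9, 16.3 and 12.98 CPM in APX2009 libraries, against 17.7, 20.04 and 19.5 CPM in untreated libraries (log2 change -0.34, SE 0.11, edgeR adjusted p = 0.0304). The RFC4 call was lost without APX2009 library 3 (edgeR adjusted p = 0.0756), untreated library 2 (0.1299) or untreated library 3 (0.112).

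RFC1, the large subunit of the RFC loader, did not pass. It had 55.4, 53.7 and 51.4 CPM in APX2009 libraries, against 51.2, 56.2 and 52.9 CPM in untreated libraries, with overlapping groups. Its log2 change was 0.00 (SE 0.06, edgeR adjusted p = 0.986), and its sign turned with RLE and upper-quartile factors. Its 95% interval of -0.14 to 0.14 does not include the estimate of any small subunit. The interval of RFC4, -0.58 to -0.11, overlaps it, while those of RFC2, RFC3 and RFC5 do not. The difference between subunits was not tested. With ERCC totals and without APX2009 library 1 the log2 change of RFC1 was -0.52, close to the median of all genes tested under that scaling. DSCC1, of the alternative loader that acts in sister chromatid cohesion, had overlapping groups and did not pass (log2 change -0.47, SE 0.21, edgeR adjusted p = 0.109).

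PCNA, the clamp itself, had 91.8, 122 and 107 CPM in APX2009 libraries, against 130.5, 110.1 and 119 CPM in untreated libraries. The groups overlapped and the difference did not pass (log2 change -0.17, SE 0.10, edgeR adjusted p = 0.2401, 95% interval -0.39 to 0.06). The annotation names 3 PCNA pseudogenes and 3 RPA2 pseudogenes, whose reads can be confused with those of the parent gene, and 1 each for RFC3, RFC5, POLD2 and DBF4. The RPA subunits, which bind single-stranded DNA as a trimer, did not pass either. These were RPA1 (log2 change -0.20, SE 0.08, edgeR adjusted p = 0.0771), RPA2 (log2 change -0.16, SE 0.09, edgeR adjusted p = 0.225) and RPA3 (log2 change -0.26, SE 0.12, edgeR adjusted p = 0.121). Of the 15 members that did not pass, 6 had an unadjusted p under 0.05. No share over all genes was computed for that count. In 5 of the 15 all APX2009 values lay below all untreated values, namely CDC6, ORC1, ORC2, POLE2 and RPA1. Among all genes tested, called or not, 25.0% showed this separation.

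Fork protection genes fell in 3 of 4 cases, with a median log2 change of -0.535. CLSPN codes for claspin, the adaptor that passes the ATR signal to CHK1, and had 4.46, 6.22 and 4.93 CPM in APX2009 libraries, against 10.1, 9.04 and 8.54 CPM in untreated libraries (log2 change -0.83, SE 0.15, edgeR adjusted p = 0.00192). WDHD1, the human counterpart of yeast Ctf4 and a link between polymerase alpha and the helicase, had 13.9, 12.4 and 10.6 CPM in APX2009 libraries, against 18.8, 19 and 17.5 CPM in untreated libraries (log2 change -0.58, SE 0.11, edgeR adjusted p = 0.00275). The groups were apart in both. TIMELESS and TIPIN form a complex that travels with the fork. TIMELESS had 24.98, 29.9 and 25.4 CPM in APX2009 libraries, against 41.8, 33.8 and 37.4 CPM in untreated libraries (log2 change -0.49, SE 0.10, edgeR adjusted p = 0.003702). TIPIN had 7.68, 6.53 and 8.43 CPM in APX2009 libraries, against 12.2, 10.1 and 8.41 CPM in untreated libraries. Its highest APX2009 value just exceeded its lowest untreated one, and it narrowly missed the threshold (log2 change -0.44, SE 0.16, edgeR adjusted p = 0.0518), which it passed in DESeq2 (adjusted p = 0.0327) and not in limma voom (adjusted p = 0.0527). A processed ribosomal pseudogene, RPL9P25, covers 21% of the TIPIN exon bases, so reads of the pair cannot be fully separated.

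All 5 genes of chromatin assembly and methylation upkeep fell, with a median log2 change of -0.62. UHRF1, which reads hemimethylated DNA behind the fork and recruits DNMT1 (ENSG00000276043, chromosome 19, 4903080 to 4962154), had 22.5, 30.8 and 26.7 CPM in APX2009 libraries, against 58.5, 54.6 and 52.1 CPM in untreated libraries. It had the largest estimated fall of the 42 (log2 change -1.05, SE 0.11, edgeR adjusted p = 5.59e-05), and its highest APX2009 value was far under its lowest untreated one. ATAD2, an ATPase with a bromodomain that sits on newly made chromatin (ENSG00000156802, chromosome 8, 123319850 to 123416350), had 53.4, 55.8 and 51.2 CPM in APX2009 libraries, against 98.3, 91.8 and 95.4 CPM in untreated libraries. Its values were tight within each group, and it had the smallest p of the set (log2 change -0.83, SE 0.06, edgeR adjusted p = 8.78e-06). DNMT1, the maintenance methyltransferase, had 63.6, 72.6 and 64.04 CPM in APX2009 libraries, against 95.98, 98.9 and 101 CPM in untreated libraries (log2 change -0.56, SE 0.07, edgeR adjusted p = 0.000209).

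The CAF-1 subunits among the members were likewise separated between the groups. CHAF1A, the large subunit, had 18.5, 23.6 and 18.6 CPM in APX2009 libraries, against 30.5, 32.8 and 29.9 CPM in untreated libraries (log2 change -0.62, SE 0.10, edgeR adjusted p = 0.00114). CHAF1B, the middle subunit, had 9.21, 10.04 and 10.3 CPM in APX2009 libraries, against 12.6, 13.7 and 11.8 CPM in untreated libraries (log2 change -0.37, SE 0.11, edgeR adjusted p = 0.02403). The CHAF1B call was lost without APX2009 library 2 (edgeR adjusted p = 0.0522), untreated library 1 (0.0615) or untreated library 2 (0.122).

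Levels per length were compared as TPM, computed from counts and merged exon length. PCNA was the most abundant of the set, at 273 ± 47.1 TPM in APX2009 cultures and 319 ± 17.5 TPM in untreated cultures (SD, n = 3 each). POLD2 came next, at 148 ± 15.02 TPM in APX2009 cultures and 226 ± 10.7 TPM in untreated cultures. Its partner POLD1 had 14.1 ± 1.82 TPM in APX2009 cultures and 18.96 ± 1.49 TPM in untreated cultures, so these subunits of one polymerase differed far more in level than either did between the groups. The median member had 14.8 TPM in APX2009 cultures and 21.6 TPM in untreated cultures. The lowest were POLE2, at 1.61 ± 0.335 TPM in APX2009 cultures and 2.44 ± 0.0708 TPM in untreated cultures, and GINS4, at 2.65 ± 0.11 TPM in APX2009 cultures and 4.41 ± 0.305 TPM in untreated cultures. The size of the change went little with the level: Spearman's rho between log2 change and untreated log2 TPM was 0.16 over the 42 genes, which share the same 6 libraries.

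**Figure D3:**
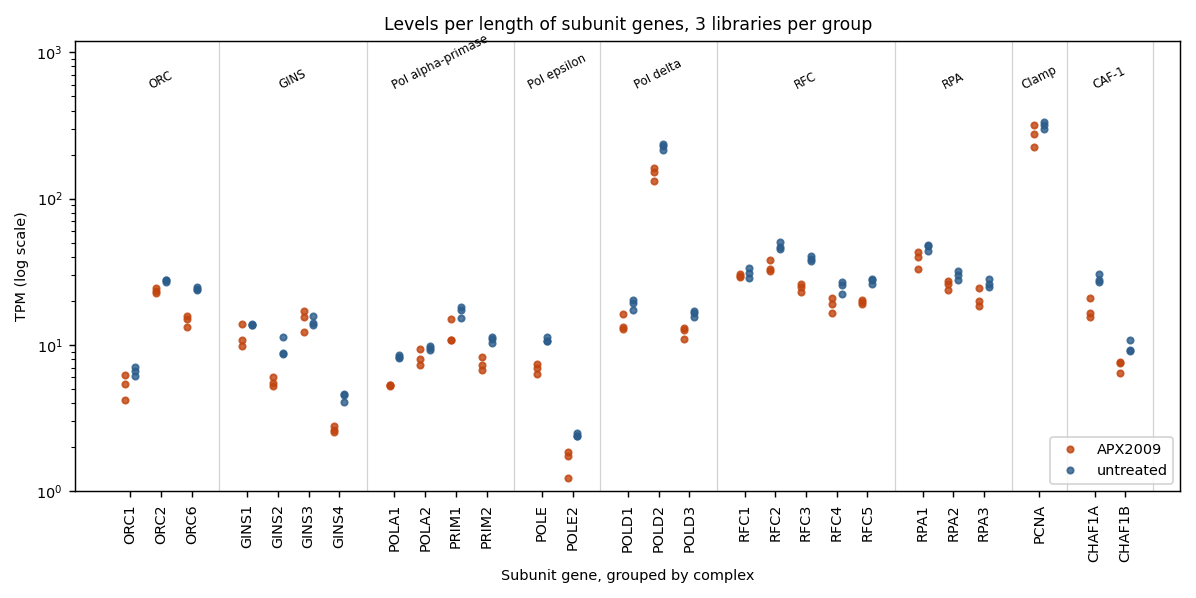
TPM on a log scale of the subunit genes of 9 complexes, with each library as a point and APX2009 left of untreated. PCNA and POLD2 lie highest and POLE2 lowest; the groups are apart for POLD2, POLE, POLA1 and RFC3 and overlap for GINS3, RFC1 and PCNA.

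A ratio of 2 genes within a library does not depend on how libraries are scaled, so 7 pairs were compared as log2 ratios of counts, with exact two-sided permutation tests over libraries. With 3 libraries against 3 the smallest p such a test can give is 0.1, so no pair could pass. CHAF1B relative to CHAF1A averaged -1.03 ± 0.19 in APX2009 cultures and -1.29 ± 0.05 in untreated cultures (SD, n = 3 each), a difference of 0.26 with no overlap (exact permutation p = 0.1, or 0.7 adjusted over the 7 pairs). CDT1 relative to GMNN, the licensing factor against its inhibitor, averaged 1.37 ± 0.24 in APX2009 cultures and 1.43 ± 0.02 in untreated cultures, with overlapping values (exact permutation p = 0.8). Its ratio was 1.12, 1.41 and 1.59 in APX2009 libraries and 1.41, 1.45 and 1.45 in untreated libraries, so APX2009 libraries spread more widely than untreated ones. The other 5 pairs also overlapped between the groups. Their differences, APX2009 minus untreated, were -0.12 for ORC1 to ORC2, 0.20 for DBF4 to CDC7, 0.05 for POLE2 to POLE, 0.01 for POLD3 to POLD1 and 0.06 for TIPIN to TIMELESS (exact permutation p from 0.4 to 0.8, and 0.8 after adjustment).

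The remaining genes of the pathway were read from a list of 45, among them ORC3 to ORC5, small polymerase subunits, Okazaki fragment enzymes, histone chaperones and checkpoint genes. All 45 were tested, and 26 fell (57.8%) and 4 rose, with a median log2 change of -0.30. Over all genes tested 17.4% were lower and 17.2% higher, so the 4 that rose were a smaller share than among all genes. This list too was chosen with earlier results of these data known, so these shares are only descriptive. Without APX2009 library 1 the numbers were 27 lower and 4 higher, and without untreated library 3 they were 16 and 4. Of all genes tested, 19.1% and 11.9% were lower in these fits. By p, the leading falls were in ASF1B, ESCO2, TONSL and TICRR. ASF1B, a histone chaperone that hands H3 and H4 to CAF-1, had 7.86, 9.38 and 8.77 CPM in APX2009 libraries, against 23.5, 24.2 and 20.7 CPM in untreated libraries (log2 change -1.398, SE 0.10, edgeR adjusted p = 8.25e-06). ESCO2, the acetyltransferase of replicative cohesion, had 1.87, 1.96 and 1.87 CPM in APX2009 libraries, against 5.28, 5.26 and 4.63 CPM in untreated libraries (log2 change -1.41, SE 0.15, edgeR adjusted p = 8.64e-05). TONSL, which binds new histones at damaged forks, had 29.5, 33.9 and 31.4 CPM in APX2009 libraries, against 52.4, 47.1 and 49.9 CPM in untreated libraries (log2 change -0.66, SE 0.08, edgeR adjusted p = 0.000131). In these and in TICRR the groups were separated. TICRR, which helps to place CDC45 on origins, had 4.38, 5.2 and 3.88 CPM in APX2009 libraries, against 8.63, 9.12 and 10.8 CPM in untreated libraries (log2 change -1.08, SE 0.15, edgeR adjusted p = 0.000399).

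The 4 related genes that rose were ASF1A, RBBP4, RBBP7 and RAD17. ASF1A, the paralogue of ASF1B, had 38.1, 32.4 and 35.2 CPM in APX2009 libraries, against 18.4, 19.96 and 21.8 CPM in untreated libraries (log2 change 0.81, SE 0.09, edgeR adjusted p = 0.000111). RBBP4, the small histone-binding subunit of CAF-1 that also serves other chromatin complexes, had 99.5, 99.6 and 97.4 CPM in APX2009 libraries, against 72.5, 75.1 and 73.3 CPM in untreated libraries (log2 change 0.42, SE 0.06, edgeR adjusted p = 0.000339). The 3 CAF-1 subunit genes thus did not move in 1 direction under this scaling. RBBP7, a close relative of RBBP4, had 97.3, 104 and 112 CPM in APX2009 libraries, against 82.6, 77.2 and 76.7 CPM in untreated libraries (log2 change 0.40, SE 0.07, edgeR adjusted p = 0.00157). RAD17, which loads the checkpoint clamp, had 30.4, 27.5 and 28.1 CPM in APX2009 libraries, against 20.5, 23.9 and 24.2 CPM in untreated libraries (log2 change 0.33, SE 0.09, edgeR adjusted p = 0.01602). With ERCC totals and without APX2009 library 1, the median log2 change of all genes tested was -0.48. In that fit ASF1A had a log2 change of 0.26. The signs of the others turned, to -0.07 for RBBP4, -0.04 for RBBP7 and -0.21 for RAD17.

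A pair of ratios was picked after these values were seen and therefore not tested. They restate the same counts within libraries and are no separate support. The log2 ratio of ASF1A to ASF1B was 2.27, 1.79 and 2.001 in APX2009 libraries and -0.36, -0.28 and 0.07 in untreated libraries. On the TPM scale ASF1A had 52.3 ± 2.58 TPM in APX2009 cultures and 31.3 ± 3.41 TPM in untreated cultures, and ASF1B had 14.1 ± 1.71 TPM in APX2009 cultures and 38.8 ± 3.23 TPM in untreated cultures (SD, n = 3 each). The more abundant paralogue per length was therefore ASF1A in APX2009 cultures and ASF1B in untreated cultures. The log2 ratio of RBBP4 to CHAF1A was 2.42, 2.08 and 2.38 in APX2009 libraries and 1.25, 1.197 and 1.29 in untreated libraries. In each ratio the groups were far apart compared with the spread within them, as choosing genes that moved in opposite directions made likely.

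**Figure D4:**
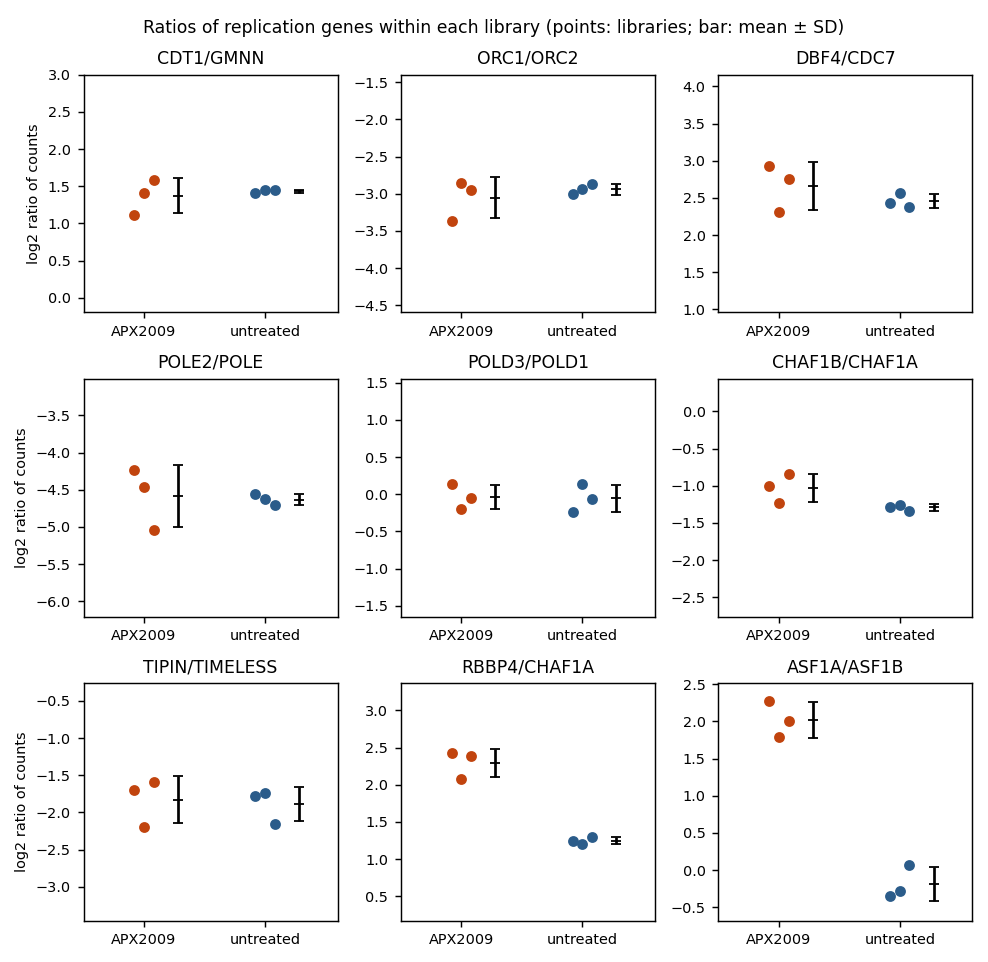
Log2 ratio of the counts of 2 genes within each library for 9 pairs, APX2009 left of untreated, with the mean ± SD. The groups overlap in 6 panels, lie apart by 0.26 on average for CHAF1B/CHAF1A, and lie apart by 1.05 for RBBP4/CHAF1A and 2.21 for ASF1A/ASF1B, the pairs chosen after their values were seen.

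For comparison, 3 short lists of other cell cycle genes were read, with no test between lists. All 6 MCM2 to MCM7 genes, which code for the helicase core, fell, with a median log2 change of -0.82. Among 6 deoxynucleotide synthesis genes 4 fell, with a median of -0.67, and all 6 mitotic kinase genes fell, with a median of -1.05. Over all genes tested 17.4% were lower. The median of the 42 replication genes, -0.42, lay nearer to 0 than these 3 medians. Members and lists were chosen with earlier results of these data known, so this order is only descriptive. In each of the 5 lists APX2009 library 2 had the median nearest to the untreated level among the APX2009 libraries.

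**Figure D5:**
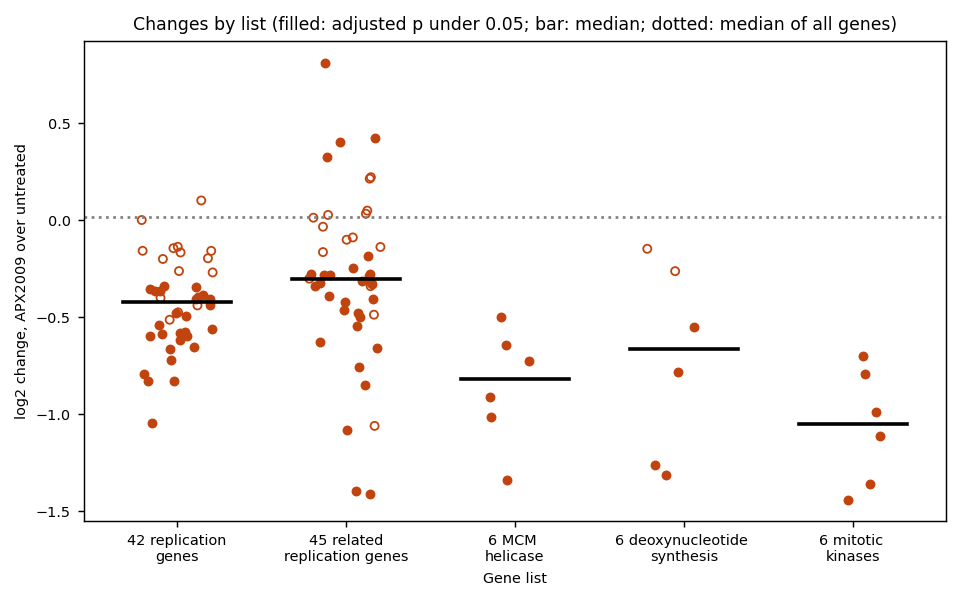
Log2 change (APX2009 over untreated, TMM scaling) of the genes of 5 lists; each point is a gene, filled where the edgeR adjusted p is under 0.05, the bar is the list's median and the dotted line the median of all genes tested. Medians are -0.42 for the 42 replication genes, -0.30 for the related genes, -0.82 for MCM genes, -0.67 for deoxynucleotide synthesis and -1.05 for mitotic kinases, with ASF1A the highest point among the related genes.

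The members that fell included genes with and without an E2F word. Of the 18 members with such a word in a listed window 11 fell, with a median log2 change of -0.48, and of the 18 without it 13 fell, with a median of -0.40. The word was present in UHRF1, POLE, RFC3 and CLSPN, as printed above, and also in CDC6, PCNA, POLA2, POLE2, GINS1, GINS3 and TIPIN, which did not pass. A CCAAT box, CCAAT on either strand, was found in 22 of 36 members (61.1%) and in 42.8% of tested genes. The CHR word TTTGAA, known from genes of late cell cycle phases, was found in 1 member, DBF4, and in 13.4% of tested genes. The word GGCGGGAA in place of the 4 E2F words, which overlaps TTTCCCGC read on the other strand, was held by 10 of 36 members (27.8%) and 6.29% of tested genes. These matches describe letters in a window and not bound factors.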

How the data were processed

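Poly(A) RNA of OE33 cultures was sequenced in 6 libraries, grouped by the treatment label. The authors deposited 1 table of unnormalized read counts per Ensembl gene with 92 ERCC spike-in rows. Per the submitters' processing notes, Trimmomatic 0.36, STAR 2.5.2b, featureCounts and Subread 1.5.2 were used with GRCh38; annotation release and strand setting: not given in the sources used here. GENCODE 29 matched 57447 of 58051 identifiers.

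ERCC rows were kept out of library sizes. Genes passing filterByExpr were scaled by TMM and fitted on treatment alone with glmQLFit and glmQLFTest in edgeR 4.0.16 (R 4.3.3), adjusting over all tested genes by Benjamini-Hochberg. Standard errors and 95% intervals derive from the F statistic. Ratios had 0.5 added to each count. Steps were tested on simulated counts. DESeq2 1.42.0 and limma 3.58.1 served as alternatives; scaling, filtering, thresholds and left-out libraries were also varied. Members and lists were chosen with earlier results of these data known. Every member is named. Values per library are given for up to 4 members of each role group with the smallest p, for ratio pairs, and for the 4 related genes with the smallest p in each direction; those of CDC6, RFC1 and PCNA were added after their values were seen. Depth and library composition are given with the results.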

Additional observations from a re-analysis of the deposited data

How the results depend on the processing

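With ERCC totals as library sizes, edgeR called 0 members, 0 related genes lower and 0 higher, and 0 genes of the 3 short comparison lists (1, 2 and 7 at an unadjusted p under 0.05), with 7 genes lower and 129 higher among all tested. With ERCC totals and without APX2009 library 1, chosen after seeing the data, 41 members, 40 related genes and 9230 of all genes were lower, and 0 related and 459 of all genes higher; signs turned for GINS3 (-0.29), RFC1 (-0.52), RBBP4 (-0.074), RBBP7 (-0.040) and RAD17 (-0.21). Against a 1.5-fold change, 2 members, 3 related and 9 comparison genes were lower and 0 related genes higher, with 255 lower and 351 higher overall. At an adjusted p under 0.01 there were 20 members and 15 related genes lower, with 1587 lower and 1470 higher overall. Under RLE, total-count and upper-quartile scaling, no filter or 1 CPM, DESeq2, limma voom, and without mitochondrial and the most counted genes, 27 to 32 members were lower, and DESeq2 and limma voom each called all 27. The near-zero RFC1 turned sign with RLE (-0.0014), upper-quartile factors (-0.0016), no filter (-0.010) and DESeq2 (-0.0014).

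Leaving out 1 library at a time gave 23 to 30 members lower and 0 higher, 16 to 27 related genes lower and 3 to 4 higher, 16 to 17 comparison genes lower, and 1795 to 2870 genes lower and 1708 to 2839 higher overall. Of the 27 members, 21 were called in all 6 such fits; the others were GMNN, CDC45, RFC4, POLD1, POLD3 and CHAF1B. RFC1 ranged from -0.028 to 0.047. The ratio differences ranged from -0.17 to 0.064 for CDT1/GMNN, -0.22 to 0.041 for ORC1/ORC2, 0.070 to 0.38 for DBF4/CDC7, -0.12 to 0.28 for POLE2/POLE, -0.075 to 0.11 for POLD3/POLD1, 0.17 to 0.36 for CHAF1B/CHAF1A and -0.069 to 0.24 for TIPIN/TIMELESS. The causes were not tested.

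Same-numbered libraries of the groups deviated together only weakly (correlations of 0.14, 0.078 and 0.0060), so the numbers were not taken as pairs, although APX2009 libraries 1 and 2 matched their own number best and APX2009 library 3 matched untreated library 2; with the replicate number as a block, 30 members were lower, all 27 among them and PRIM1, TIPIN and DSCC1 added (adjusted p = 0.0416, 0.0287 and 0.0187 in edgeR). The lowest member count, 20, was that of POLE2.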
